A study of Mus musculus with 5 samples.

Results

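The H19-Igf2 and Kcnq1 domains are neighbouring clusters of imprinted genes on mouse chromosome 7, described here through 9 genes: H19, Igf2, Cdkn1c, Phlda2, Kcnq1, Kcnq1ot1, Slc22a18, Nap1l4 and Cd81. They were taken by symbol from a table of 22869 genes, and where a symbol had several transcript rows the row with the highest mean count was used. All 9 were found, and all 9 passed the filter on low counts. The mutant group was 2 libraries from mice labelled Dnmt1 L/L; VillinCre, and the control group was 3 libraries from littermates labelled Dnmt1 L/+, whose label names no Cre. Each library held RNA of intervillus cells, the epithelium between the villi from which crypts later form, cut by laser from sections of proximal jejunum at postnatal day 0. Dnmt1 copies DNA methylation onto the new strand after replication, and VillinCre acts in gut epithelium, so other cells in a captured area would keep their Dnmt1. Mutant areas were taken where Ki67 staining was negative and control areas where it was positive, so genotype and proliferative state cannot be told apart in any value below.

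Imprinted genes are expressed mainly from the allele of 1 parent. DNA methylation at an imprinting control region marks 1 of the parental alleles, which need not be the expressed one. In the H19-Igf2 domain that region is methylated on the paternal allele. On the unmethylated maternal allele it binds CTCF, which separates the enhancers from Igf2 and leaves them to H19. In the Kcnq1 domain the methylated allele is the maternal one, the Kcnq1ot1 promoter lies inside the control region, and the paternally expressed Kcnq1ot1 RNA silences Cdkn1c, Phlda2 and other neighbours in cis. The counts analysed here do not separate the parental alleles, so they give the total RNA of each gene.

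The first exon of H19 contains the precursor of miR-675, and its mature forms are shown because the microRNA's precursor was counted as a row of its own. The sequences are RefSeq's, from chromosome 7 of GRCm38.p6, minus strand, chr7:142577112-142577133 for the 5p form and chr7:142577078-142577099 for the 3p form. Capitals mark the seed, bases 2 to 8. Neither seed is shared by another mature microRNA of that table.
mmu-miR-675-5p: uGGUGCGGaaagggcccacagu
mmu-miR-675-3p: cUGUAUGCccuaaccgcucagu

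The start of Kcnq1ot1 is shown because this promoter lies in the imprinting control region of the Kcnq1 domain. Its window of 300 bases, from 250 before to 50 after the start, lies at chr7:143296498-143296797 of GRCm38.p6, minus strand, and is RefSeq's. Capitals mark the motif CCAAT, the box bound by the factor NF-Y, searched on both strands (as CCAAT or ATTGG).
Kcnq1ot1 promoter: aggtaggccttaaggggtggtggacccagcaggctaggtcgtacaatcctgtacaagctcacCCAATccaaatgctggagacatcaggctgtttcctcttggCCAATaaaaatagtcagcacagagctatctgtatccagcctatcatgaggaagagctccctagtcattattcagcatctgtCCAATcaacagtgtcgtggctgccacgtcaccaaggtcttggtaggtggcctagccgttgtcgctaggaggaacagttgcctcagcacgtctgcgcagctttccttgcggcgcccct
The window holds 3 CCAAT boxes, all on the strand of the gene. Of 32851 promoter windows of this length in the table, 37.4% hold at least 1 and 3.37% hold 3 or more. It has 9 CpG sites, where the median window has 7. RefSeq windows were found for 5 of the 9 genes. The 4 windows of Igf2 have 2, 14, 24 and 7 CpG sites, and Phlda2 has 26, Cd81 23 and Slc22a18 2. A motif match is a description of the letters and not evidence of binding, and no methylation was measured.

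Counted with 1 row per gene, mutants 4 and 6 held 8730268 and 10260760 reads and the controls 10530200 to 13356901. The library sizes used for scaling below were taken over all tested transcript rows, not from these totals. Dnmt1 had 37.8 and 40.5 CPM (read counts put on a common library size by the TMM method) in the mutants, against 123, 128 and 95.1 CPM in the controls (log2 fold change -1.56 ± 0.16, SE; edgeR quasi-likelihood F-test, Benjamini-Hochberg adjusted p = 3.74e-05). Mki67 fell as well (log2 fold change -0.84 ± 0.15; edgeR adjusted p = 0.00284), in areas chosen on Ki67 staining. Summed over Uty, Kdm5d, Ddx3y and Eif2s3y, all Y-linked, the mutants held 4 and 3 counts, against 2710 to 3160 in the controls. The X-linked RNA Xist had 900.5 and 638.6 CPM in the mutants, against 3.63, 4.26 and 2.96 CPM in the controls. By these transcripts both mutants were female and all controls male. Genotype and sex therefore cannot be told apart in any value of this report, in addition to proliferative state. The labels do not state that the libraries are of different mice, and the p-values describe the spread among these libraries, which may be technical. All fold changes below are mutant over control and come from 1 edgeR fit to the whole table, with p-values adjusted over its 19353 tested rows and a call at an adjusted p under 0.05.

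Of the 9 genes, H19 and Cd81 rose, none fell and 7 did not pass. The background over 14572 tested genes was 6.11% called higher (891 genes) and 4.17% called lower (608 genes), and nothing is read from 2 calls among 9 genes beyond the values of each gene. The median log2 fold change was 0.50 over the 9 genes and -0.01 over all genes. Both mutants lay above all controls in H19, Igf2, Slc22a18 and Cd81, an arrangement found in 21.7% of all genes. Both lay below all controls in Kcnq1 and Nap1l4, found in 21.8% of all genes. In Cdkn1c, Phlda2 and Kcnq1ot1 the groups overlapped. Before adjustment, 3732 of the 14572 tested genes had an edgeR p under 0.05, in either direction. Of the 9 genes, 4 were higher and 1 (Kcnq1ot1) lower at that threshold. With DESeq2 and with the edgeR exact test 0 fell, and 1, again Kcnq1ot1, fell without control 3 or with no filter on low counts. Cd81 no longer passed on the deposited FPKM or when control 2, control 3, mutant 4 or mutant 6 was left out, so that H19 was the one member called under every setting tried.

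**Figure D1:**
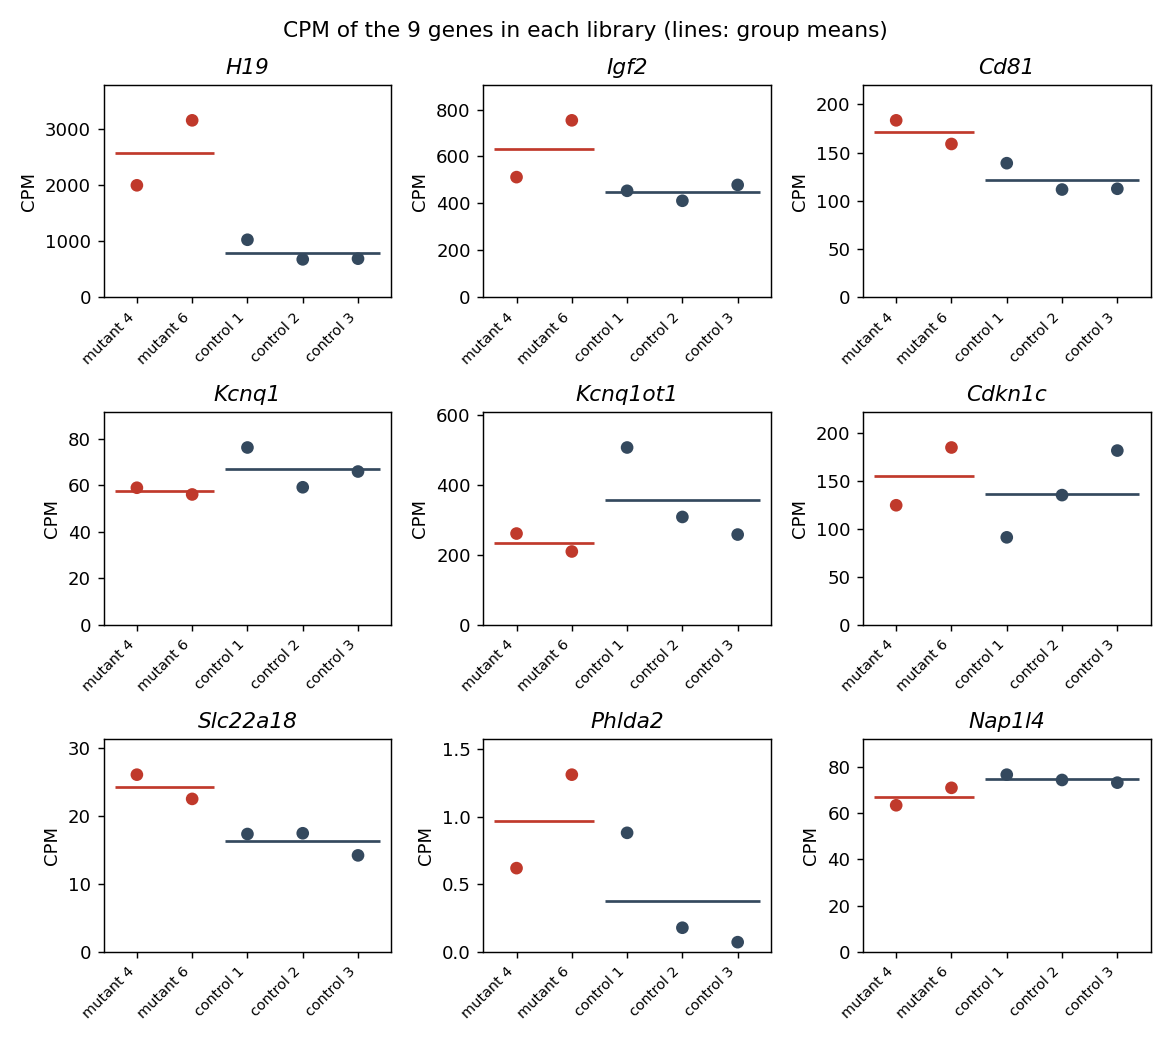
CPM of each gene in each library (y axis from 0, mutants in red, controls in dark blue, lines at group means, n = 2 and 3). Both H19 points of the mutants (2002 and 3163 CPM) lie above the highest control (1029 CPM), while the Cdkn1c and Kcnq1ot1 points of the groups overlap.

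H19, a maternally expressed noncoding RNA that is abundant in fetal tissues and is switched down after birth, rose in both mutants. It had 2002 and 3163 CPM in mutants 4 and 6, against 1029, 679 and 691 CPM in the controls. Control 1 was the highest control, mutant 4 lay well above it, and the groups did not overlap. The log2 fold change was 1.69 ± 0.21 (SE), a 3.23-fold difference (edgeR adjusted p = 0.000195). Across 15 other settings it lay between 1.32 (without mutant 6) and 1.98 (without mutant 4), and H19 was called in all 15. These are high counts, 22628 and 40996 reads in the mutants and 9810 to 18690 in the controls, so counting error is small beside the spread between libraries. In the same libraries the summed level of 11 mesenchyme and smooth muscle markers was 1959 and 1827 CPM in mutants 4 and 6, against 1188 to 1300 CPM in the controls. Both mutants thus lay above all controls in H19 and in the marker sum. Nothing is read from the order of the mutants, which are 2 single libraries. Whether mesenchyme has a part in the H19 change was not tested.

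The row of the miR-675 precursor, Mir675, was also higher, with 17.8 and 20.8 CPM in the mutants against 13.2, 5.33 and 7.89 CPM in the controls (log2 fold change 1.13 ± 0.30; edgeR adjusted p = 0.0292). It lies inside an H19 exon on the same strand, so its reads also lie in H19 and are not a measure of the mature microRNAs shown above. Without mutant 4 or mutant 6 its adjusted p was 0.077 and 0.149.

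Igf2, the paternally expressed fetal growth factor of the same domain, did not pass the test. It had 512 and 754 CPM in the mutants, against 454, 411 and 479 CPM in the controls. Mutant 4 stood just above the highest control and mutant 6 well above it. The log2 fold change was 0.50 ± 0.16 (edgeR adjusted p = 0.0675). Its call turned on the setting: without mutant 4 it was 0.75 (adjusted p = 0.033), and without mutant 6 it was 0.19 (adjusted p = 0.636). It passed with DESeq2 (adjusted p = 0.0251), the edgeR exact test (0.0394) and no filter on low counts (0.00631). The 3 deposited Igf2 transcripts repeat most of the same reads and each gave a log2 fold change of 0.50, so they do not separate the promoters of Igf2. The antisense transcript Igf2as, whose exons overlap those of Igf2 on the other strand, had 25.3 and 52.6 CPM in the mutants and 31.4, 24.9 and 25.5 CPM in the controls (edgeR adjusted p = 0.198). The sources used here do not give the strand setting of the counting, so reads of this pair cannot be told apart. Mir483, inside an Igf2 intron, had 0 counts in all 5 libraries.

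The ratio of H19 to Igf2 within a library does not depend on how libraries are scaled. The count ratio was 3.91 and 4.20 in mutants 4 and 6, against 2.27, 1.65 and 1.44 in the controls. The mutants agreed closely with each other although mutant 6 had more of both RNAs, and they did not overlap the controls. The mean log2 ratio was 2.02 ± 0.07 in mutants (SD, n = 2) and 0.81 ± 0.34 in controls (SD, n = 3), a difference of 1.21. An exact two-sided permutation test gave p = 0.2, the smallest that 2 against 3 libraries allow. Leaving out 1 library at a time gave differences from 1.07 to 1.39.

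**Figure D2:**
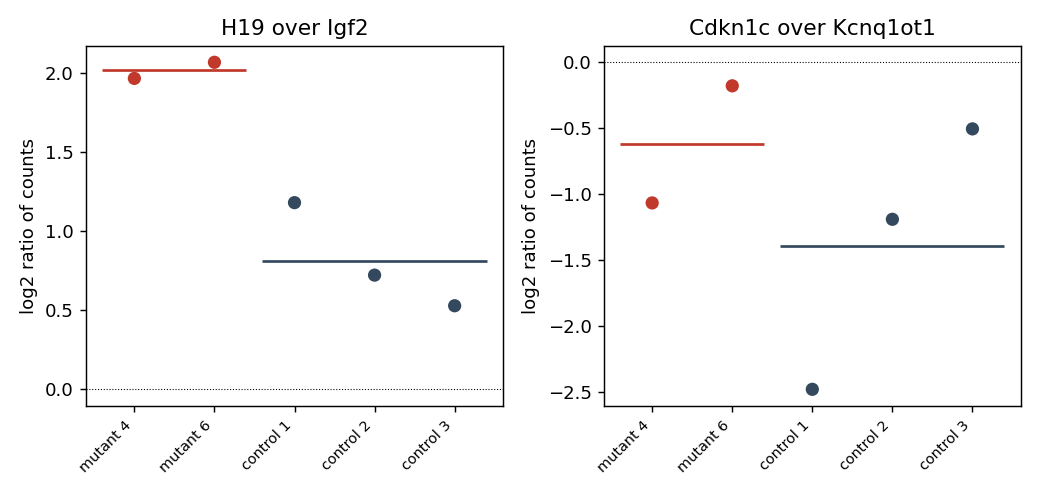
Log2 ratio of counts within each library for H19 over Igf2 (left) and Cdkn1c over Kcnq1ot1 (right), mutants in red and controls in dark blue, with lines at group means. The H19 over Igf2 ratio is near 2 in both mutants and at most 1.18 in the controls, and the groups overlap in the other ratio.

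In the Kcnq1 domain no gene reached the size of the H19 change with support from the test. Kcnq1ot1, the long antisense RNA that carries out silencing on the paternal allele, had 260.5 and 209 CPM in the mutants, against 507, 308 and 258 CPM in the controls. Control 1 stood well above the other controls, and control 3 lay inside the range of the mutants. The log2 fold change was -0.61 ± 0.23 (edgeR adjusted p = 0.114). Without control 1 it was -0.27 and without control 3 it was -0.80 (adjusted p = 0.407 and 0.0183), so the size depends on which control is kept. Exons of Kcnq1ot1 overlap exons of Kcnq1 on the other strand in GENCODE M21, so some reads could belong to either gene.

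Cdkn1c, which encodes the CDK inhibitor p57 and restrains growth, overlapped between the groups. It had 125 and 185 CPM in the mutants, against 91.0, 135 and 182 CPM in the controls. Mutant 4 lay within the range of the controls and mutant 6 just above it. The log2 fold change was 0.19 ± 0.23 (edgeR adjusted p = 0.656), and it was -0.03 without control 1 and -0.13 without mutant 6. Its paralogue Cdkn1a, which encodes p21 and lies outside the domain, rose to 92.9 and 87.1 CPM in the mutants, against 33.3, 33.2 and 47.6 CPM in the controls (log2 fold change 1.25 ± 0.17; edgeR adjusted p = 0.000359). Cdkn1b, which encodes p27, was 9.38 and 7.41 CPM in the mutants and 8.81, 10.5 and 12.3 CPM in the controls (log2 fold change -0.33 ± 0.25; edgeR adjusted p = 0.434). Because mutant and control areas were picked on opposite Ki67 staining, genotype and that choice cannot be told apart in these values.

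The count ratio of Cdkn1c to Kcnq1ot1 was 0.478 and 0.884 in the mutants and 0.180, 0.438 and 0.705 in the controls. The mean log2 ratio was -0.62 ± 0.63 in mutants (SD, n = 2) and -1.39 ± 1.00 in controls (SD, n = 3), with overlapping groups (exact two-sided permutation test, p = 0.4, where the smallest possible is 0.2). Leaving out 1 library at a time gave differences from 0.23 (without control 1) to 1.21 (without mutant 4), against 0.77 with all 5 libraries. Control 1 had the lowest ratio, with the least Cdkn1c and the most Kcnq1ot1 of the 5 libraries.

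Phlda2, a pleckstrin homology domain protein that restrains placental growth, was near the limit of detection, with 7 and 17 counts in the mutants and 16, 3 and 1 in the controls. Its groups overlapped, and the log2 fold change of 1.30 ± 0.84 was not distinguishable from 0 at this depth (edgeR adjusted p = 0.356). Slc22a18, a solute carrier beside Phlda2, had 26.0 and 22.5 CPM in the mutants, against 17.3, 17.4 and 14.1 CPM in the controls. Both mutants were above every control, with a log2 fold change of 0.57 ± 0.19 that missed the threshold (edgeR adjusted p = 0.0683). It passed with the edgeR exact test (adjusted p = 0.0447).

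Kcnq1, a potassium channel subunit of epithelia and heart, had 58.9 and 56.0 CPM in the mutants, against 76.3, 59.1 and 65.9 CPM in the controls. The lowest control was within 1 CPM of the higher mutant, and the log2 fold change was -0.22 ± 0.15 (edgeR adjusted p = 0.356). Nap1l4, a histone chaperone at the edge of the domain, had 63.4 and 71.0 CPM in the mutants, against 76.7, 74.4 and 73.2 CPM in the controls. Its log2 fold change was -0.15 ± 0.13 (edgeR adjusted p = 0.491).

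Cd81, a tetraspanin of the cell surface on the Igf2 side of Kcnq1, had 183 and 159 CPM in the mutants, against 139, 112 and 113 CPM in the controls. Control 1 was again the highest control, and mutant 6 lay closest to it. The log2 fold change was 0.50 ± 0.14 (edgeR adjusted p = 0.0387), and with 1 library left out it lay between 0.39 (without mutant 4, adjusted p = 0.305) and 0.61. On the deposited FPKM it was 0.51 (pseudocount 1, limma adjusted p = 0.214).

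**Figure D3:**
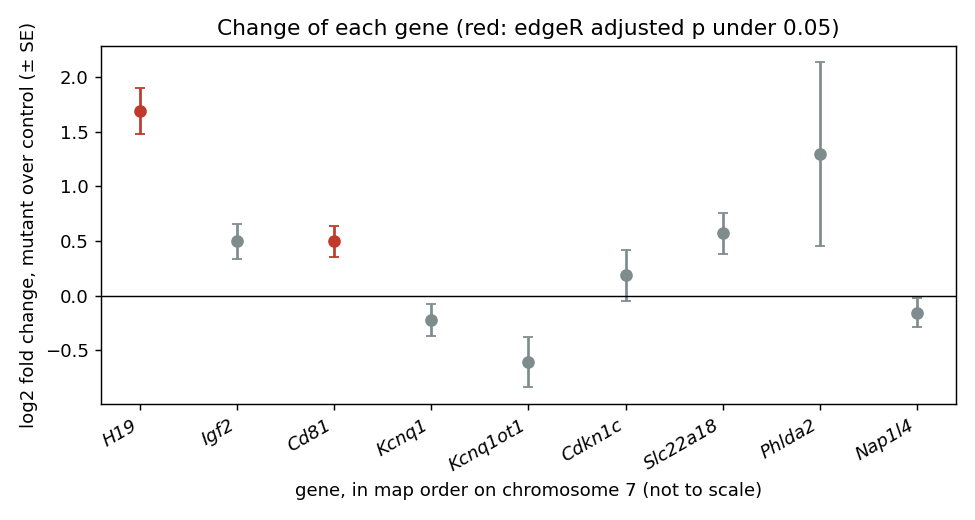
Log2 fold change, mutant over control, of each gene with its standard error, in map order on chromosome 7 (not to scale), with calls in red. H19 at one end of the cluster is at 1.69, Cd81 at 0.50, and Kcnq1ot1 has the lowest value, -0.61.

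Levels of different genes were compared per length, on the FPKM that the authors deposited. H19 led in both groups, with 719 and 1154 FPKM in the mutants and 409, 256 and 219 FPKM in the controls. Igf2 came next, at 158 ± 45.9 FPKM in mutants (SD, n = 2) and 114 ± 11.8 FPKM in controls (SD, n = 3). Cd81 had 108 ± 8.06 FPKM in mutants and 76.8 ± 18.96 FPKM in controls, and Cdkn1c had 68.8 ± 14.3 FPKM in mutants and 62.3 ± 15.9 FPKM in controls. Below these high levels stood Nap1l4, at 27.0 ± 3.39 FPKM in mutants and 31.6 ± 2.15 FPKM in controls, Kcnq1, at 17.6 ± 1.39 FPKM in mutants and 20.3 ± 2.84 FPKM in controls, and Slc22a18, at 14.2 ± 0.333 FPKM in mutants and 10.7 ± 0.887 FPKM in controls. Kcnq1ot1 was low per length, at 2.51 ± 0.409 FPKM in mutants and 4.01 ± 1.89 FPKM in controls. Phlda2 was lowest, at 2.03 ± 1.15 FPKM in mutants and 0.478 ± 0.687 FPKM in controls. The order was the same in both groups. Neighbours in it whose libraries overlapped were Cd81 and Cdkn1c in controls and Kcnq1ot1 and Phlda2 in mutants.

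Other genes of the same stretch of chromosome 7 gave 2 rises and no fall among 13 tested of 22 found, with a median log2 fold change of 0.52, while 6.11% of all genes were called higher and 4.17% lower. The rises were Mir675 and Cars. Mir675, given above, lies inside an H19 exon, so its rise is not separate from that of H19. Cars, a cysteinyl-tRNA synthetase, was at 34.9 and 33.4 CPM in the mutants against 22.5, 24.7 and 18.9 CPM in the controls (log2 fold change 0.63 ± 0.17; edgeR adjusted p = 0.0309). Cars lost its call when any library but control 2 was left out (adjusted p = 0.0685 to 0.181). None of the list fell with DESeq2, and 1 (Dhcr7) fell with the edgeR exact test. At an unadjusted p under 0.05, 6 were higher and 1 lower, where 3732 of 14572 tested genes passed in either direction. The 6 include Mir675. Nadsyn1, an NAD synthetase with the highest FPKM of the list after Mir675, had 38.3 and 41.1 CPM in the mutants and 48.2, 48.3 and 42.6 CPM in the controls (edgeR adjusted p = 0.355). Ascl2, a transcription factor of intestinal stem cells that is imprinted in placenta, was added after its values were seen, with 14.9 and 16.1 CPM in the mutants and 11.2, 9.94 and 3.59 CPM in the controls (edgeR adjusted p = 0.12).

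Genes that receive or modulate the IGF2 signal moved in both directions. Of 15 tested, 1 rose, 5 fell and 9 did not pass, where 6.11% of all genes rose and 4.17% fell, with a median log2 fold change of -0.19. The receptors that bind IGF2 and signal were lower: Igf1r had 40.2 and 39.2 CPM in the mutants, against 63.0, 53.4 and 74.9 CPM in the controls (log2 fold change -0.68 ± 0.16; edgeR adjusted p = 0.016). Insr, the insulin receptor, had 93.1 and 91.7 CPM in the mutants, against 129, 136 and 117 CPM in the controls (-0.46 ± 0.13; edgeR adjusted p = 0.037). Irs2, their adaptor, had 22.2 and 22.1 CPM in the mutants, against 48.7, 35.9 and 47.9 CPM in the controls (-0.99 ± 0.17; edgeR adjusted p = 0.00272). In all 3 genes both mutants lay below every control, an arrangement found in 21.8% of all genes. These 3 were named because they were called, so the arrangement adds no separate support.

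The RNA-binding proteins Igf2bp1 and Igf2bp3, which bind Igf2 and other mRNAs in fetal tissue, also fell, by 0.82 ± 0.17 and 0.45 ± 0.13 on the log2 scale (edgeR adjusted p = 0.00803 and 0.0439). Igf2bp2 had 118 and 118 CPM in the mutants and 128, 124 and 152 CPM in the controls (edgeR adjusted p = 0.395). Igfbp7, a secreted binding protein, rose to 116 and 132 CPM in the mutants, against 61.7, 90.8 and 70.3 CPM in the controls (0.74 ± 0.16; edgeR adjusted p = 0.00936). Igf2r, the receptor that clears IGF2 and is itself imprinted, had 214 and 208 CPM in the mutants and 169, 189 and 160 CPM in the controls (edgeR adjusted p = 0.183). Of these calls Irs2 alone held with every library left out in turn. Igf1r lost its call without control 1 or either mutant (adjusted p = 0.057, 0.108 and 0.112), Igf2bp1 without mutant 6 (0.0838), and Igfbp7 without control 1 or mutant 6 (0.0502 and 0.102). Insr and Igf2bp3 lost theirs without any 1 library other than control 3, and on the deposited FPKM none of the 15 passed with limma.

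**Figure D4:**
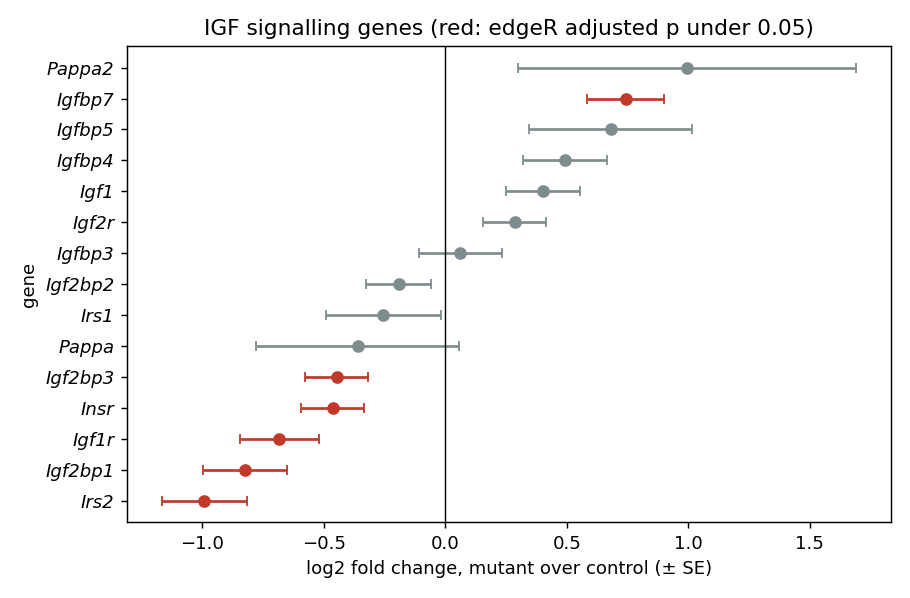
Log2 fold change, mutant over control, with its standard error for the 15 tested genes of IGF signalling, with calls in red. Irs2 is lowest at -0.99, and Igfbp7 at 0.74 is the single call above 0.

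A list of imprint control factors held genes that set, read or keep imprints, together with Plagl1 and Plag1. Of 19 tested, 1 rose, 4 fell and 14 did not pass, beside 6.11% higher and 4.17% lower over all genes. The median log2 fold change of the list was -0.22. The fall of Dnmt1 is the targeted gene and was given above. Plagl1, an imprinted zinc finger factor that activates genes of the imprinted network including H19 and Igf2, rose to 235 and 232 CPM in the mutants, against 87.8, 124 and 134 CPM in the controls (log2 fold change 1.02 ± 0.16; edgeR adjusted p = 0.00145). It was called with each library left out. Ctcf, the insulator protein of the H19 control region, had 72.1 and 63.8 CPM in the mutants, against 92.6, 78.7 and 75.9 CPM in the controls (log2 fold change -0.28 ± 0.14; edgeR adjusted p = 0.23). Zfp57, which holds methylation at imprints, had 6.99 and 7.56 CPM in the mutants and 5.40, 5.27 and 6.13 CPM in the controls (edgeR adjusted p = 0.401).

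Its partner Trim28, the most abundant gene of this list per length, had 144 and 157 CPM in the mutants, against 233, 174 and 197 CPM in the controls (log2 fold change -0.42 ± 0.15; edgeR adjusted p = 0.0879). Uhrf1, which brings DNMT1 to hemimethylated DNA, fell by 0.67 ± 0.18 on the log2 scale (edgeR adjusted p = 0.0276), the H3K9 methyltransferase gene Ehmt1 by 0.60 ± 0.16 (0.0307) and Arid4a by 0.53 ± 0.14 (0.0314). Uhrf1 and Arid4a each lost their call when any 1 of 4 libraries was left out, and Ehmt1 when any 1 of 3 was, and on FPKM the single fall was that of Dnmt1. Mbd3, a subunit of the NuRD complex, had 57.2 and 60.0 CPM in the mutants and 43.2, 51.1 and 45.8 CPM in the controls (edgeR adjusted p = 0.159).

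Markers of mesenchyme, a tissue in which H19 and Igf2 are abundant before birth, were higher in the mutants as H19 was. Of 11 mesenchyme and smooth muscle markers 7 rose and none fell, where 6.11% of all genes rose, and all 11 had positive log2 fold changes (median 0.61). Col3a1 was the highest of them, at 459 and 466 CPM in the mutants and 291 to 318 CPM in the controls. No marker of the mesenchyme, epithelium, immune, endothelial and erythroid lists was at 0 in a library. The 7 intestinal epithelium markers, which check the labelled cell type, summed to 3789 and 3646 CPM in the mutants and 3642 to 3901 CPM in the controls, with Krt18 higher and Cdx2 lower. Immune markers summed to 245 and 222 CPM in the mutants and 87.5 to 126 CPM in the controls, and 1 of 5 passed the test. That was Csf1r, a receptor of macrophages, at 175 and 160 CPM in the mutants against 61.1, 70.1 and 41.4 CPM in the controls (edgeR adjusted p = 0.000123). Csf1r alone made up most of both mutant sums. Ptprc, Cd68, C1qa and Lyz2 did not pass (edgeR adjusted p = 0.2844, 0.1496, 0.8798 and 0.4335). Among neural and glial markers S100b, a calcium-binding protein of glia, rose, at 22.6 and 23.3 CPM in the mutants against 6.28, 7.52 and 6.41 CPM in the controls (log2 fold change 1.77 ± 0.20; edgeR adjusted p = 0.000107). Elavl4 did not pass (edgeR adjusted p = 0.935), and Sox10, with 7 and 9 counts in the mutants and 6, 5 and 2 in the controls, was too low to test. Endothelial markers summed to 175 and 157 CPM in the mutants and 125 to 155 CPM in the controls, with 0 of 5 called. Erythroid markers summed to 35.9 and 35.1 CPM in the mutants and 28.7 to 34.5 CPM in the controls, and of 3 tested Alas2, an enzyme of heme synthesis, alone passed and was lower (log2 fold change -1.02 ± 0.30; edgeR adjusted p = 0.0428). What part other cell types have in the change of H19 was not tested, and in such bulk samples more cells of a type and more RNA per cell cannot be told apart.

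**Figure D5:**
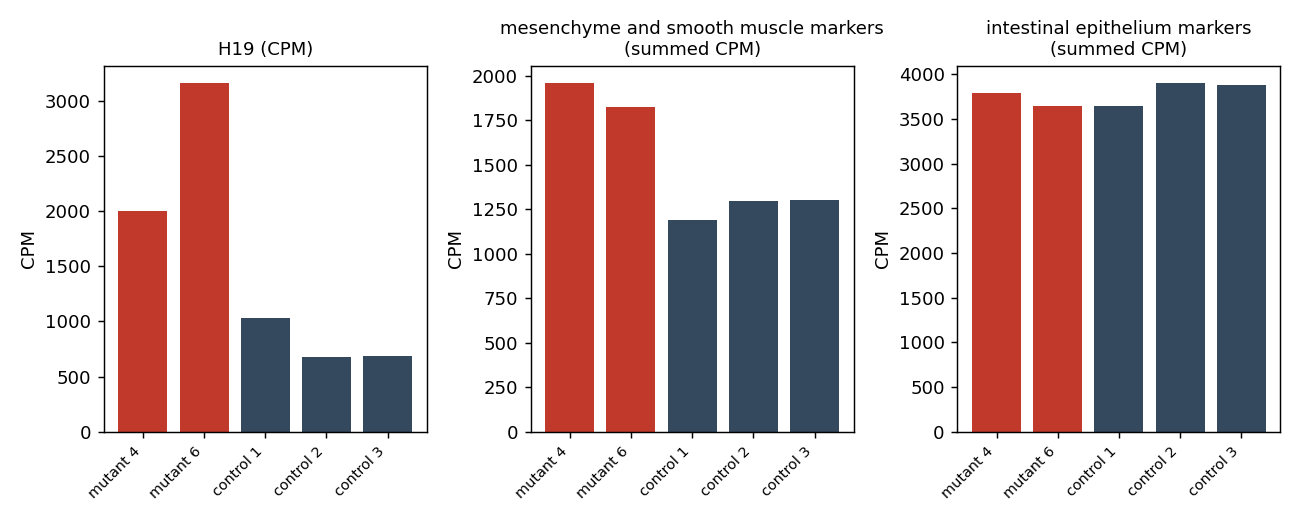
H19 in CPM (left) and summed CPM of mesenchyme and smooth muscle markers (middle) and of intestinal epithelium markers (right) in each library, mutants in red and controls in dark blue, bars from 0. H19 and the mesenchyme sum are higher in both mutants than in every control. The order of mutants 4 and 6 differs between these panels, and nothing is read from it.

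The genes most like a member over the 5 libraries were found among 10002 other genes whose average level reached a log2 CPM of 3, by the root mean square difference of log2 CPM after centring each gene on its own mean. For H19 they were Hip1, 1700011H14Rik and Nudt22, at differences of 0.19, 0.20 and 0.21 log2 units. For Igf2 they were Ninj1, Fam73a and Mfsd8, at 0.08 each, and for Cdkn1c 1110065P20Rik, Rasl12 and Sox11, at 0.10 to 0.12. Over 5 libraries in 2 groups such likeness is a description only.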

How the data were processed

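Laser-captured, methacarn-fixed cells yielded between 2.3 and 33.3 ng of RNA, which was amplified by NuGEN's Ovation V2 system and sequenced as single 100 bp reads, per the labels' protocols. Raw counts for each RefSeq transcript were deposited by the authors, with deposited FPKM values (scaled to transcript length and library size) for the same 28644 rows. Build mm9 and edgeR are named in the submitters' processing notes, but the sources used here give no aligner, counter or strand setting. The 41 symbols turned into dates were renamed by transcript through RefSeq (GRCm38.p6), which with GENCODE M21 was otherwise used for gene order, overlaps and sequences, and all 5 sample columns were matched to a sample, leaving 0 unmatched.

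Counts were tested in R 4.3.3 with edgeR 4.0.16 (quasi-likelihood F-test, default filter, TMM, no covariate, 3 residual degrees of freedom), with Benjamini-Hochberg adjustment over 19353 rows, and the procedure was tested on simulated data. Standard errors were obtained from the F statistic, as the size of the log2 fold change over its square root. CPM are counts scaled to the TMM-normalized library size over all tested transcript rows, where a read shared by several transcripts can count more than once. Alternatives were RLE and upper-quartile scaling, 2 other filters, DESeq2 1.42.0, the edgeR exact test, limma 3.58.1 on log2(FPKM + 1) and log2(FPKM + 0.1), other row choices, and leaving out each library. Within-library ratios were tested with scipy 1.17.1. No 2 libraries of a group agreed within sampling noise (chi-square per gene 9.94 to 25.2, where about 1 would be sampling noise).

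The members and gene lists were chosen with earlier results of these data known. Named genes were the members, Dnmt1, Mki67, Cdkn1a, Cdkn1b, in each list the called genes and the 2 with the highest FPKM, and 3 genes most like H19, Igf2 and Cdkn1c. Genes named outside that rule to explain a role or the sex of the libraries (Ctcf, Zfp57, Igf2r, Igf2as, Mir483, Xist and markers) were added after their values were seen. Some marker genes, and the sum that holds them, are not reported here.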

Additional observations from a re-analysis of the deposited data

How the results depend on the processing

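H19 was higher and called under all 15 alternatives. Dnmt1, Plagl1, Irs2 and Cdkn1a kept their calls with each library left out in turn, and Cd81 did not. Members called higher numbered 2. That count was 4 with the edgeR exact test, 3 with DESeq2 and 3 with no filter on low counts. It was 1 on FPKM with either pseudocount and between 1 and 2 with a control left out. Members called lower numbered 0, and were 1 with no filter on low counts and between 0 and 1 with a library left out. Over all genes 891 were higher and 608 lower. The higher count was 335 and 341 on FPKM (pseudocount 1 and 0.1) and 408 to 1057 with a library left out, and the lower count 131 and 165 on FPKM, 935 with no filter and 170 to 645 with a library left out. Other domain genes called higher numbered 5 with no filter, 0 on FPKM and 0 to 2 with a library left out, and those called lower 1 with no filter or the exact test. IGF signalling genes called higher numbered 2 with no filter, 0 on FPKM and 0 to 2 with a library left out. Those called lower numbered 3 with upper-quartile scaling, 0 on FPKM and 1 to 5 with a library left out. Imprint control factors called lower numbered 6 with no filter, 1 on FPKM and 1 to 5 with a control left out. Cdkn1c, with 0.19 in the full data, was -0.03 without control 1 and -0.13 without mutant 6, and 0.45 at most. The cause of these differences was not tested. No paired analysis was made, because no litter or pair was known for each library and the groups share no replicate number. With 2 mutant libraries, depth limits Phlda2 most, and the rows left out by the filter of 5 CPM include it.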
